A study of Mus musculus with 26 samples.

Results

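The response to retinoic acid was compared between KH2 mouse embryonic stem cells that lack the alpha form of NAP1L1 (alphaKO) and wild-type KH2 cells (WT). For each gene the quantity was a difference of changes on the log2 scale: day 4 minus day 0 in alphaKO cells, minus the same in WT cells. The contrast takes its means from 12 of the 26 libraries of the series, 3 each of alphaKO at day 4, alphaKO at day 0, WT at day 4 and WT at day 0, and was tested for 18412 of the 55471 genes in the deposited table. The filter on low counts and the estimate of spread used all 26. Genes were then sorted by how the alphaKO change stood to the WT change. The study followed WT cells and 2 NAP1L1 knockout genotypes by bulk RNA sequencing through 0, 2 and 4 days of retinoic acid. Its libraries came from alphaKO (genotype label NAP1L1 alpha knock-out), from fullKO (NAP1L1 knock-out) and from WT (wild-type), all in the KH2 line. The means of the 3 alphaKO and 3 WT libraries of day 2 entered none of the contrasts that sort the genes, and the fullKO libraries serve here only as a second knockout to set beside alphaKO. All alphaKO libraries carry the same prefix in their names, so they may stand for 1 clone, and the effect of the clone cannot be told apart from that of the genotype. Nothing states that replicates came from separate cultures, so p-values measure only the spread between these libraries, which may be technical. In bulk samples, fewer cells of a type and less RNA per cell cannot be told apart.

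NAP1L1 is a histone chaperone that carries H2A-H2B dimers to and from nucleosomes. Retinoic acid binds the receptors RAR and RXR on DNA. In embryonic stem cells it switches on Hox genes, the enzyme Cyp26a1 and other targets, while the genes of the pluripotent state are shut down and division slows.

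Total counts per library ran from 13537267 to 20569706, and mitochondrial transcripts took 1.3% to 1.96% of them. Embryonic stem cell markers were high on day 0, with Pou5f1 at 587, 590.5 and 603 CPM in alphaKO libraries and 615, 620.5 and 611 CPM in WT libraries. Nap1l1 itself, counted over the whole gene, had 339, 348 and 340.2 CPM in alphaKO libraries at day 4 and 621, 608 and 569 CPM at day 0. WT libraries held 413, 383 and 383 CPM at day 4 and 1010, 997 and 1068 CPM at day 0. Every alphaKO library was below every WT library of the same day, and the deposited gene-level counts do not separate the alpha form from other transcripts. The fall with retinoic acid was smaller in alphaKO cells, by a difference of 0.58 ± 0.05 (SE). Genes on chromosome 1 stood higher in alphaKO on both days, with a median log2 difference of 0.50 at day 4 and 0.41 at day 0, while their median difference of changes was 0.07. Over the 7 tested genes of chromosome Y the median difference was -3.045 at day 4 and -2.895 at day 0. The cause of these standing differences was not tested. Below, the chromosome is given for some of the named genes only.

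A difference of changes passed the test in 8094 genes, 44% of those tested (edgeR quasi-likelihood test, Benjamini-Hochberg adjusted p under 0.05, which is meant by "called" throughout). It was positive (a larger rise or a smaller fall in alphaKO cells) in 4464 genes, 24.2% of those tested, and negative in 3630 genes, 19.7%. A size of at least 1 on the log2 scale was reached by 2665 called genes, 14.5% of those tested, and a size of at least 2 by 987 genes. The median over all tested genes was 0.06. At the threshold, Npepps was the last gene called, with a difference of -0.13 ± 0.05, and Wrnip1 the first not called, with -0.25 ± 0.11.

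Of the called genes, 4987 (61.6%; 27.1% of those tested) were blunted: WT cells changed, and alphaKO cells changed less in the same direction or had no called change of their own. Exaggerated responses, a larger change of the same sign in alphaKO cells, numbered 1505 (18.6%; 8.17% of those tested). In 665 genes (8.22%; 3.61% of those tested) the response was reversed, with called changes of opposite sign in the 2 genotypes. A further 904 genes (11.2%; 4.91% of those tested) changed in alphaKO cells with no called change in WT cells, and 33 could be put in no class. Among the blunted genes, 1147 had no called change in alphaKO cells.

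The change between the days was called in 76% of tested genes in alphaKO cells (40.3% up, 35.7% down) and in 77.4% in WT cells. Of 7490 genes that rose in WT cells (40.7% of those tested), 2670 (35.6%) were blunted or reversed in alphaKO cells and 958 (12.8%) were exaggerated. Of the 6761 genes that fell in WT cells (36.7%), 2982 (44.1%) were blunted or reversed and 547 (8.09%) exaggerated. These shares are a description across genes, which are not replicates. The 2328 blunted rises had a median change of 0.60 in alphaKO cells and 1.45 in WT cells. Among the 2659 blunted falls, the medians were -0.74 in alphaKO cells and -1.34 in WT cells. Exaggerated rises had medians of 1.82 in alphaKO cells and 1.04 in WT cells, and exaggerated falls -1.38 in alphaKO cells and -0.71 in WT cells.

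The alphaKO and WT changes share no library, and their sizes are set side by side here. Genes taken for a large WT change favour a share under 1 by that choice alone, so the shares are only a description. In the 8675 genes whose WT change was called and at least 1 on the log2 scale, the alphaKO change was a median 0.756 of the WT change, with quartiles of 0.524 and 1.018. The share was under 1 in 73.8% of them. It had a median of 0.808 over the 4755 rises and 0.717 over the 3920 falls. Across all tested genes, the slope of the alphaKO change on the WT change was 0.76 and Pearson's r was 0.819, both given without a test. An r under 1 by itself lowers such a slope.

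**Figure D1:**
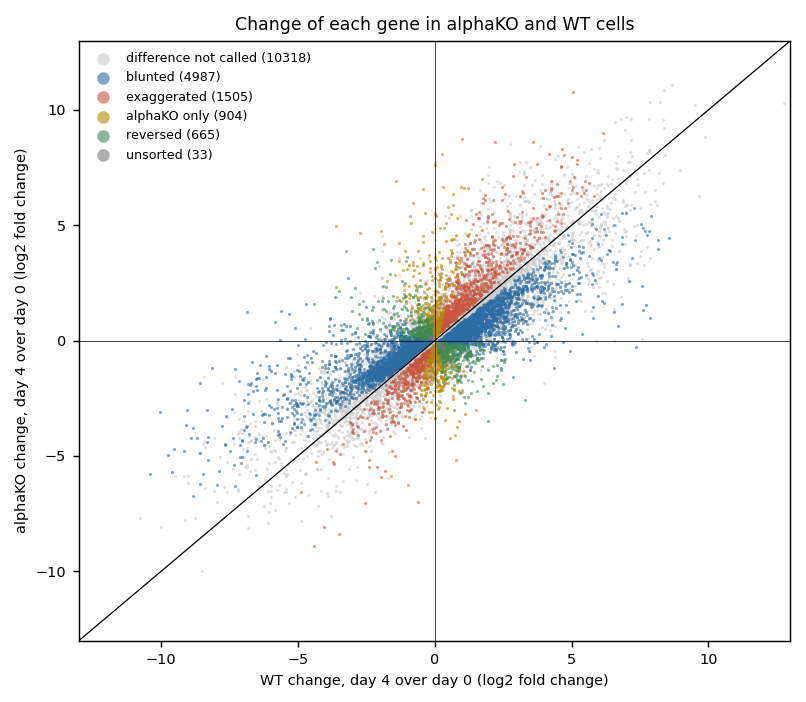
Each point is a tested gene, with its WT change on the x axis and its alphaKO change on the y axis (log2 fold change, day 4 over day 0), coloured by class. The diagonal marks equal changes. The 4987 blunted genes lie between the diagonal and the x axis or just past it, and the 665 reversed genes fill the quadrants where the signs differ.

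Sorting by when the 2 genotypes differed gave another view of the same genes. For 3265 of the called genes (40.3%), alphaKO and WT differed at day 4 and not at day 0. For 1494 genes (18.5%) they differed at day 0 and not at day 4, and for 1878 (23.2%) they differed on both days with opposite signs. The difference was of 1 sign and larger at day 4 in 875 genes, of 1 sign and smaller at day 4 in 344, and called on neither day in 238. At day 4, 9707 genes (52.7% of those tested) differed between alphaKO and WT, and at day 0, 7105 genes (38.6%).

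**Figure D2:**
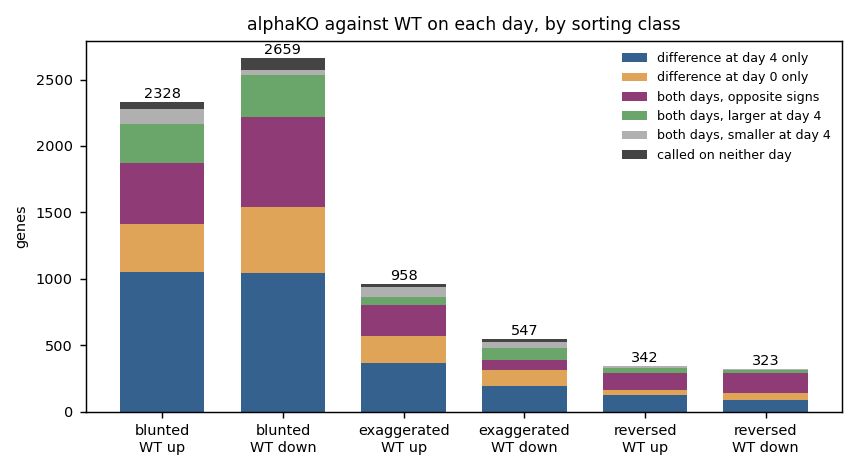
Bars count the genes of each sorting class (y axis, genes), stacked by the days on which alphaKO and WT libraries differed. The totals above the bars run from 2659 blunted falls to 323 reversed falls, and genes that differed at day 4 only form the largest segment of both blunted bars, with 1046 falls and 1054 rises.

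The day 2 means, which entered the sorting only through the shared filter and estimate of spread, held many of the day 4 differences. Of the 1728 genes that opened a gap upwards by day 4, 804 (46.5%) were already called higher in alphaKO cells at day 2 and 91 (5.27%) lower. Over all tested genes, 40.2% were called at day 2, 19.9% higher and 20.3% lower. Of the 1537 genes that opened a gap downwards, 868 (56.5%) were called lower at day 2 and 61 (3.97%) higher. Of the 626 genes that were higher in alphaKO cells at day 0 and no longer called at day 4, 193 (30.8%) were called higher at day 2 and 71 (11.3%) lower. Of the 868 that were lower at day 0 only, 187 (21.5%) were called lower at day 2, near the 20.3% of all tested genes, and 125 (14.4%) higher. In 934 of the 2328 blunted rises (40.1%), the alphaKO mean of day 4 lay between the WT means of day 2 and day 4. The same held for 1531 of the 2659 blunted falls (57.6%). Blunted genes were sorted by a smaller alphaKO change, which favours such a place, and no such share was taken over all tested genes. A delay was not tested.

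Pluripotency genes fell less in alphaKO cells. Naive pluripotency genes, which mark the ground state of embryonic stem cells, had a positive difference of changes in 12 of 16 members and a negative one in 3. Their median change was -2.98 in alphaKO cells and -5.12 in WT cells, and their median difference 2.27. The 12 were all blunted falls, and the shares compare with 24.2% of all tested genes positive and 19.7% negative. General pluripotency genes had 11 of 14 members positive and 1 negative, a median difference of 1.21, and median changes of -2.95 in alphaKO cells and -4.39 in WT cells. These lists, like the others below, were drawn up with earlier results of these data known. The counts of each list below stand beside the same 24.2% positive and 19.7% negative of all tested genes.

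Fgf4, a growth factor that embryonic stem cells secrete, had 9.14, 8.49 and 7.97 CPM in alphaKO libraries at day 4 and 155, 155 and 151 CPM at day 0. WT libraries held 0.435, 0.655 and 0.517 CPM at day 4 and 181, 175 and 154 CPM at day 0. At day 0 the ranges of the genotypes overlapped, and at day 4 every alphaKO library was far above every WT library. The difference of changes was 4.10 ± 0.26 (edgeR quasi-likelihood test, adjusted p = 6.43e-18). At day 2 Fgf4 was already higher in alphaKO cells, with a log2 difference of 2.43 ± 0.15.

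Pou5f1, which encodes the core pluripotency factor OCT4, had 587, 590.5 and 603 CPM at day 0, 76.7, 82.7 and 81.3 CPM at day 2 and 31.8, 29.6 and 35.6 CPM at day 4 in alphaKO libraries. In WT libraries it had 615, 620.5 and 611 CPM at day 0, 24.9, 25.9 and 23.3 CPM at day 2 and 2.83, 5.30 and 2.99 CPM at day 4. At day 0 the alphaKO libraries lay just below the WT libraries, and from day 2 on far above them. The change was -4.20 ± 0.06 in alphaKO cells and -7.36 ± 0.08 in WT cells, a difference of 3.15 ± 0.12.

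Nanog, another core factor, was named after its values were seen. Its alphaKO libraries had 418, 422 and 403 CPM at day 0, 144, 142 and 156 CPM at day 2 and 75.7, 66.0 and 69.9 CPM at day 4. WT libraries had 237, 229.8 and 219 CPM at day 0, 18.6, 20.9 and 19 CPM at day 2 and 6.53, 6.73 and 5.34 CPM at day 4. Unlike Pou5f1 it was already higher in alphaKO cells at day 0, and the gap widened on each later day, with a difference of changes of 2.65 ± 0.10. Nr5a2, an orphan nuclear receptor that acts upstream of Pou5f1, and Tcl1 moved likewise, with differences of 3.12 ± 0.22 and 3.70 ± 0.54, although Tcl1 had only 3 counts in all in WT libraries at day 4. Nr5a2 lies on chromosome 1, whose genes as a whole stood higher in alphaKO cells. Gdf3 and Dppa5a, both general pluripotency markers, had differences of 2.99 ± 0.16 and 2.14 ± 0.09.

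Dppa3, a maternal factor of the early embryo that naive cells express, had 2.77, 2.63 and 1.80 CPM in alphaKO libraries at day 4 and 5, 5.93 and 6.05 CPM at day 0. WT libraries held 0.290, 0.238 and 0.460 CPM at day 4 and 56.1, 54.1 and 48.7 CPM at day 0. Here the order of the genotypes turned round: alphaKO was below WT on day 0 and above it on day 4, with no overlap on either day. Its difference of changes was 6.05 ± 0.35 (adjusted p = 8.78e-19), the largest of the naive list.

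The 3 naive genes that went the other way were Klf4, Tbx3 and Klf5, the last 2 named after their values were seen. Klf4, a factor downstream of LIF, had 33.9, 30.3 and 30.6 CPM in alphaKO libraries at day 4 and 618, 696 and 697 CPM at day 0. WT libraries held 28.5, 29.7 and 24.7 CPM at day 4 and 151, 166 and 153 CPM at day 0. The alphaKO libraries were far above WT at day 0 and only just above WT at day 4, so the fall was larger in alphaKO cells, with a difference of -1.90 ± 0.09. Klf5 also fell more in alphaKO cells, with a difference of -1.73 ± 0.08. Tbx3 rose in WT cells by 1.63 ± 0.06, while its alphaKO change was -0.11 ± 0.05.

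The LIF and STAT3 list, to which Klf4 belongs, had 2 of 12 members positive and 8 negative, with a median difference of -0.40. Pim3 and Socs3, both targets of STAT3, fell further in alphaKO cells, with differences of -1.21 ± 0.08 and -1.07 ± 0.10. Gbx2, a homeobox target of STAT3 that lies on chromosome 1, was a blunted fall, with 1.79 ± 0.21.

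**Figure D3:**
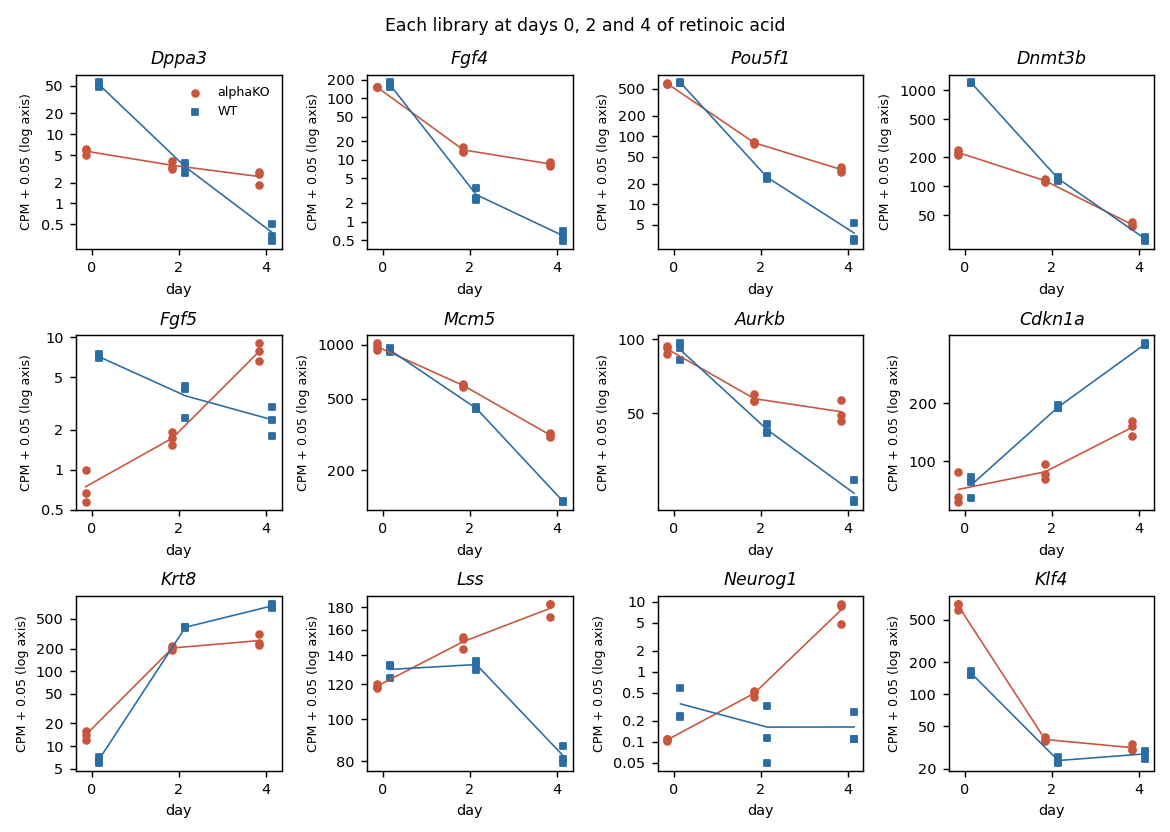
CPM plus 0.05 on a log axis for 12 genes in each alphaKO and WT library (points) at days 0, 2 and 4, with lines through the group means. Fgf4 and Pou5f1 part from day 2 on, Dppa3, Dnmt3b and Fgf5 start apart and cross, and Klf4 starts higher in alphaKO cells and ends close to WT.

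Formative and primed genes, which mark the step after the naive state, all had a positive difference: 10 of 10, with a median of 2.85. Their median change was -0.99 in alphaKO cells and -4.07 in WT cells. Of these 10, 7 were blunted falls and 3 were reversed. alphaKO cells began from lower levels, with a median log2 difference from WT of -1.90 at day 0, 0.90 at day 2 and 1.02 at day 4.

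Fgf5, the growth factor of the primed epiblast, had 6.55, 7.84 and 8.94 CPM in alphaKO libraries at day 4 and 0.523, 0.940 and 0.620 CPM at day 0. WT libraries held 1.74, 2.32 and 2.93 CPM at day 4 and 7.01, 6.89 and 7.39 CPM at day 0. It was high at day 4 in alphaKO cells and high at day 0 in WT cells, with no overlap on either day. Its change was 3.48 ± 0.26 in alphaKO cells and -1.58 ± 0.22 in WT cells (adjusted p of the difference = 1.25e-16). Sox3 was also reversed, with a difference of 3.39 ± 0.28. The homeodomain factors Otx2 and Pou3f1 were blunted falls. Otx2 had 0.819, 0.986 and 0.514 CPM at day 4 in alphaKO libraries against 0, 0.179 and 0 CPM in WT libraries, where the 3 libraries together had 3 counts.

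Genes of DNA methylation, some of them shared with the formative list, all moved one way. All 10 had a positive difference of changes, with a median of 0.98, and 8 of them were blunted falls. Dnmt3b, a de novo methyltransferase, had 223, 238 and 213 CPM at day 0, 110.3, 114 and 118 CPM at day 2 and 42.7, 38.8 and 38.2 CPM at day 4 in alphaKO libraries. WT libraries had 1208, 1190 and 1187 CPM at day 0, 126, 121 and 113 CPM at day 2 and 29.9, 27 and 28.3 CPM at day 4. The alphaKO libraries began far below WT, met them at day 2 and ended above them, and the difference of changes was 2.90 ± 0.08. Dnmt3l, its cofactor, Dnmt3a, the other de novo enzyme, and Tet1, which oxidises methylcytosine, had differences of 2.12 ± 0.12, 1.70 ± 0.07 and 1.19 ± 0.08.

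The FGF and ERK feedback list had 12 of 18 members positive and 2 negative, with a median of 0.80. Besides Fgf4 and Fgf5 it held Fgf15. Fgf15 had 3.09, 4.38 and 4.89 CPM in alphaKO libraries at day 4 and 3.72, 4.76 and 3.62 CPM at day 0. WT libraries held 0.145, 0.298 and 0.287 CPM at day 4 and 13.6, 12.4 and 13.2 CPM at day 0. In alphaKO cells the ranges of the 2 days overlapped, while in WT cells Fgf15 was close to absent by day 4, and the difference was 5.70 ± 0.39. Egr1, an immediate target of ERK, went the other way: 16.9, 16.0 and 15.8 CPM at day 4 in alphaKO libraries against 89.7, 106 and 104 CPM in WT libraries, with overlapping ranges at day 0. Its difference was -2.84 ± 0.16, and at day 2 it was already lower in alphaKO cells, with a log2 difference of -2.04 ± 0.13.

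The immediate-early and heat shock list as a whole had 2 of 17 members positive and 9 negative, with a median of -0.92, and 5 of the 9 were reversed. The stress factor Atf3 and the AP-1 subunits Fosb and Fos had differences of -3.26 ± 0.24, -2.47 ± 0.47 and -2.40 ± 0.28. Atf3 was higher in alphaKO libraries at day 0, with 84, 108 and 141 counts against 22, 19 and 24 in WT libraries. At day 4 it was lower, with 329, 302 and 268 counts against 554, 649 and 597. Without WT day 0 replicate 2 the list's median was -1.39.

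Cell cycle genes fell less in alphaKO cells. All 18 genes of the G1/S list, which licenses and starts DNA replication, had a positive difference of changes, and all 18 were blunted falls. The median difference was 0.85, and the median change -1.25 in alphaKO cells and -2 in WT cells. Of the G2/M list, which runs mitosis, 17 of 18 were blunted falls, with a median difference of 0.76 and median changes of -1.11 in alphaKO cells and -1.93 in WT cells. Both lists were close to WT at day 0, where their median log2 difference was 0.02 and -0.04, stood at 0.28 and 0.30 at day 2, and reached 0.84 and 0.76 at day 4.

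Promoters of 3 of these genes are shown, because the G1/S and G2/M lists moved as blocks and classical cell cycle promoters carry known motifs. Each runs from 250 bases before to 50 bases after the gene's start, 5′ to 3′ on the gene's own strand, from RefSeq (GRCm38.p6). Capitals mark matches on either strand: for Mcm5 the E2F site (TTTCGCGC, TTTGGCGC or TTTCCCGC, here 2 that overlap), and for Kif11 and Top2a the CHR element (TTTGAA) and the CCAAT box (CCAAT).
Mcm5, chr8:75109259-75109558, plus strand: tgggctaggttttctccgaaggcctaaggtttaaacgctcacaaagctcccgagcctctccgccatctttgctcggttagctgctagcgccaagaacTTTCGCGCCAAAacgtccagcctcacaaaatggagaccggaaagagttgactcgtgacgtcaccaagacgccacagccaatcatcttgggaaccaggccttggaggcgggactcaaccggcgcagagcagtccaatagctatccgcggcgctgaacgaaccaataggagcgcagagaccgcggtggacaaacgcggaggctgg
Kif11, chr19:37376132-37376431, plus strand: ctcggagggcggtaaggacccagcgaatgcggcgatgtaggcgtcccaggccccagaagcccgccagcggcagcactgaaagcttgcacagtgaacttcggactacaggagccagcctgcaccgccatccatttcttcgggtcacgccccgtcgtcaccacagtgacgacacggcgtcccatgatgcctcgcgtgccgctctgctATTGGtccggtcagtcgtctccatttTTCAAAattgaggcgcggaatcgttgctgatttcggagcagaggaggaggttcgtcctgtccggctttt
Top2a, chr11:99024140-99024439, minus strand: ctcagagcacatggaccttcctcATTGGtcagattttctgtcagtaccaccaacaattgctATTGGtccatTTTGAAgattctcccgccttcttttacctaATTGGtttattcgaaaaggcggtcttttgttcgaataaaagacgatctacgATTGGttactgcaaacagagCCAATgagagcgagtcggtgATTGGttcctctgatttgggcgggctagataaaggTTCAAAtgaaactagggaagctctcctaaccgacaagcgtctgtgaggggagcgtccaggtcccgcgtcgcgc

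Genes with a promoter sequence were counted as matched if any of their promoters held the motif. An E2F match stood in 7 of 15 G1/S genes (46.7%), against 3.65% of the 12599 tested genes. The promoter of Tyms held no E2F match. A CHR match stood in 10 of the 14 G2/M genes (71.4%), against 14.6%, and a CCAAT match in 13 of 14 (92.9%), against 42.4%. Over all genes with blunted falls the shares were 6.81% for E2F, 18.5% for CHR and 46.5% for CCAAT. A match is a description of the letters and not a site of binding.

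Mcm5, a subunit of the replicative helicase, had 306, 321 and 316 CPM in alphaKO libraries at day 4 and 990.4, 1019 and 931 CPM at day 0. WT libraries held 134, 134 and 134 CPM at day 4 and 965, 935 and 914 CPM at day 0. The genotypes overlapped at day 0, and at day 4 every alphaKO library held more than every WT library. The difference was 1.17 ± 0.05 (adjusted p = 7.03e-23). Cdt1 and Cdc6, which load the helicase, and Tyms, which makes thymidylate, had differences of 1.13 ± 0.07, 1.04 ± 0.08 and 0.99 ± 0.08.

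Aurkb, a mitotic kinase, had 46.5, 56.5 and 48.9 CPM in alphaKO libraries at day 4 and 87.3, 92.1 and 93.8 CPM at day 0. WT libraries held 22.1, 26.8 and 21.8 CPM at day 4 and 96.1, 92.4 and 82.5 CPM at day 0. Again the groups overlapped at day 0 and stood apart at day 4, and the difference was 1.09 ± 0.10. Kif11, the spindle motor, Mki67, the proliferation marker, and Top2a, the topoisomerase that untangles sister chromosomes, had differences of 1.01 ± 0.06, 0.99 ± 0.07 and 0.98 ± 0.06. 

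The list of CDK inhibitors and D cyclins, which mixes genes that restrain and drive the cycle, had 5 of 12 members positive and 5 negative. Its median was 0.24. Cdkn1a, which encodes the CDK inhibitor p21, had 161, 153 and 136 CPM in alphaKO libraries at day 4 and 61.6, 65.1 and 87.5 CPM at day 0. WT libraries held 404, 409.9 and 404 CPM at day 4 and 64.4, 83.2 and 78.5 CPM at day 0. At day 4 all alphaKO libraries were far below all WT libraries, while at day 0 the ranges overlapped. The rise was 1.07 ± 0.08 in alphaKO cells and 2.43 ± 0.08 in WT cells. Cdkn2a and Cdkn2b, neighbouring inhibitor genes, rose less in alphaKO cells too, with differences of -1.08 ± 0.13 and -1.07 ± 0.16. Cdkn1c, an imprinted inhibitor, rose more, with 1.85 ± 0.11.

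Targets of p53 other than Cdkn1a were mostly blunted rises. Of 18 members 16 had a negative difference and 1 a positive one, the median was -1, and 13 were blunted rises. Perp, a junction protein that p53 induces, had 88.3, 71.3 and 69.8 CPM in alphaKO libraries at day 4 and 16.4, 16.0 and 22.3 CPM at day 0. WT libraries held 366, 325 and 337 CPM at day 4 and 11, 13.2 and 15.8 CPM at day 0. At day 4 the alphaKO libraries were all far below the WT libraries, after a day 0 on which they were slightly higher. Its difference was -2.63 ± 0.16 (adjusted p = 1.83e-18). Mdm2, which degrades p53, and Btg2, an antiproliferative factor on chromosome 1, had differences of -1.2 ± 0.09 and -1.43 ± 0.09. Pmaip1, which encodes the death factor NOXA, was reversed, with -1.61 ± 0.07 in alphaKO cells and 0.46 ± 0.06 in WT cells. At day 2 the list's median stood at -0.76 in alphaKO cells relative to WT, against -0.14 at day 0.

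Histone chaperones, the family of function to which NAP1L1 belongs, had 19 of 24 members positive and none negative, with a median difference of 0.44, and 18 of the 19 were blunted falls. Chaf1b, a subunit of the CAF-1 complex that deposits H3-H4 behind the fork, had 47.9, 51.0 and 52.0 CPM in alphaKO libraries at day 4 and 149.8, 153 and 151 CPM at day 0. WT libraries held 16.8, 19.9 and 22.1 CPM at day 4 and 152, 149 and 136 CPM at day 0. The day 4 groups stood apart with alphaKO higher, and the day 0 groups overlapped; the difference was 1.30 ± 0.09. Anp32e, which removes H2A.Z, Nasp, which carries H3-H4, and Set had differences of 1.30 ± 0.06, 0.93 ± 0.06 and 0.84 ± 0.05. Of the NAP1 family itself, 3 of 10 members were positive and 1 negative, with a median of -0.01. Nap1l4, the closest other ubiquitous member, had a difference of 0.28 ± 0.06, and Tspyl1 of -0.38 ± 0.08.

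Epithelial genes mostly had a negative difference. Of 10 members 7 had a negative difference and 2 a positive one, with a median of -0.97. Krt8, a keratin of simple epithelia, had 311, 234 and 221 CPM in alphaKO libraries at day 4 and 12.1, 13.8 and 16.0 CPM at day 0. WT libraries held 781, 702 and 746 CPM at day 4 and 5.96, 7.01 and 6.34 CPM at day 0. It was higher in alphaKO cells at day 0 and lower at day 4, with no overlap on either day. The difference was -2.66 ± 0.17, and Krt19 and Krt18, its keratin partners, had -2.96 ± 0.30 and -1.35 ± 0.17.

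Cdh1, which encodes E-cadherin, was reversed. Its alphaKO libraries had 666, 699 and 674 CPM at day 0, 453, 432 and 442 CPM at day 2 and 301, 254 and 246 CPM at day 4. WT libraries had 925, 932 and 882 CPM at day 0, 1098, 1105 and 1075 CPM at day 2 and 1143, 1083 and 1099 CPM at day 4. The alphaKO level was lower at each later day, and on all 3 days every alphaKO library was below every WT library. Its change was -1.35 ± 0.05 in alphaKO cells and 0.28 ± 0.05 in WT cells. Sfn, which encodes the epithelial 14-3-3 sigma, was among the 3 largest reversed rises. Sfn had 11.5, 6.52 and 6.69 CPM in alphaKO libraries at day 4 and 29.3, 31.2 and 34.2 CPM at day 0. WT libraries held 98.3, 85.4 and 85.3 CPM at day 4 and 27.7, 24.9 and 25.5 CPM at day 0. The alphaKO libraries were slightly above WT at day 0 and far below them at day 4, with a difference of -3.73 ± 0.16.

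Smooth muscle and contractile genes had the lowest median difference of the 37 lists, -1.79, with 9 of 10 members negative and none positive. Their median rise was 3.25 in alphaKO cells and 4.73 in WT cells. The summed level of the list was 1810 to 2590 CPM in alphaKO libraries at day 4 and 206 to 232 CPM at day 0. In WT libraries it was 7280 to 8150 CPM at day 4 and 263 to 297 CPM at day 0. None of the 10 was at 0 in any of these groups, and the part of such cells in the results was not tested. Des, the muscle intermediate filament, was reversed, with a difference of -3.46 ± 0.14. It was higher in alphaKO libraries at day 0, with 561, 545 and 736 counts against 149, 167 and 134 in WT libraries. At day 4 it was lower, with 333, 295 and 263 counts against 758, 863 and 955. Actg2, Tagln and Myh11, actin, an actin-binding protein and a myosin of smooth muscle, had -3.05 ± 0.44, -2.42 ± 0.46 and -2.35 ± 0.39.

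Of 15 fibroblast genes, 4 were positive and 4 negative, with a median of 0.02. Their summed level was 1050 to 1180 CPM in alphaKO libraries at day 4 and 1740 to 2690 CPM at day 0, against 2060 to 2190 CPM in WT libraries at day 4 and 3240 to 4300 CPM at day 0. None of the 15 was at 0 in any of these groups, and the part of such cells was not tested. Lum and Dcn, both matrix proteoglycans, had differences of 1.70 ± 0.61 and 1 ± 0.16, the first no longer called without WT day 4 replicate 3 (1.29) or alphaKO day 4 replicate 1 or 2, and the collagen genes Col6a1 and Col1a1 -1.12 ± 0.23 and -0.86 ± 0.16.

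The direct response to retinoic acid was present in both genotypes. Cyp26a1, the enzyme that degrades retinoic acid and a direct target of it, was named after its values were seen. It had 232, 218 and 223 CPM in alphaKO libraries at day 4 and 0.232, 0 and 0.258 CPM at day 0. WT libraries held 171, 178 and 153 CPM at day 4 and 0, 0.0615 and 0.330 CPM at day 0. It was near absent at day 0 in both genotypes, and at day 4 every alphaKO library was above every WT library, with a log2 difference of 0.42 ± 0.06. The fitted difference of changes was 0.00, with an adjusted p of 0.997 by the edgeR quasi-likelihood test. At day 0 Cyp26a1 had only 4, 0 and 5 counts in alphaKO libraries and 0, 1 and 5 in WT libraries. The fitted value is thus imprecise and does not show equal changes. Of the 16 genes of retinoic acid handling, 6 were positive and 1 negative, with a median of 0.50.

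Aldh1a2, which makes retinoic acid from retinal, was reversed. It had 25.6, 32.4 and 35.2 CPM in alphaKO libraries at day 4 and 3.02, 2.35 and 2.22 CPM at day 0. WT libraries held 1.74, 1.85 and 1.95 CPM at day 4 and 4.09, 3.32 and 3.70 CPM at day 0. The alphaKO libraries of day 4 stood above all others, with a log2 difference from WT of 4.06 ± 0.19, while at day 2 that difference was -0.75 ± 0.26. The difference of changes was 4.62 ± 0.31. Crabp1, a retinoic acid binding protein, had 28.5, 38.7 and 41.4 CPM at day 4 in alphaKO libraries against 6.6, 7.14 and 7.99 CPM in WT libraries, and a difference of 2.95 ± 0.18. Lrat, which stores retinol as ester, was called, but none of its 4 groups had a mean over 0.243 CPM. Aldh1a3, which like Aldh1a2 makes retinoic acid, had a difference of -1.68 ± 0.65. Its call was lost in 7 of the 12 fits that leave out a library, with -1.39 at the least without WT day 4 replicate 1.

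Among receptors for retinoids and the COUP-TF family, 5 of 10 were positive and 1 negative, with a median of 0.32. Nr2f1, which encodes COUP-TF1, had 71.6, 83.7 and 82.4 CPM in alphaKO libraries at day 4 and 0.407, 0.646 and 0.879 CPM at day 0. WT libraries held 28.3, 34.8 and 36.9 CPM at day 4 and 1.05, 1.29 and 0.858 CPM at day 0. At day 4 alphaKO libraries were all higher, and at day 0 the groups overlapped only at the edge. Its rise was larger in alphaKO cells, with a difference of 1.95 ± 0.37, although at day 2 it was lower than in WT, with -1.58 ± 0.16. Nr2f2, which encodes COUP-TF2, and Nr2f6 had differences of 1.78 ± 0.20 and 0.56 ± 0.13, and Nrip1, a corepressor, -0.38 ± 0.09.

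All 15 anterior Hox genes rose in WT cells, with a median of 6.17 in alphaKO cells and 5.47 in WT cells, and 4 were positive and 2 negative in the difference, whose median was 0.79. Of the 23 posterior Hox genes tested, 10 were positive and 3 negative, with a median of 0.80 and 9 exaggerated rises. Hoxb1, the earliest anterior target, had 0.407, 0.0587 and 0.517 CPM at day 0, 112, 119.7 and 119.7 CPM at day 2 and 27.5, 26.1 and 27 CPM at day 4 in alphaKO libraries. WT libraries had 1.23, 1.11 and 1.39 CPM at day 0, 112, 115 and 115 CPM at day 2 and 28.7, 27.4 and 25.6 CPM at day 4. The genotypes overlapped at days 2 and 4 and differed at day 0, where alphaKO was lower, so its difference of 1.84 ± 0.34 came with a day 4 gap of -0.02 ± 0.07. Hoxa3 was of the opposite kind, higher in alphaKO cells at day 0 by 2.32 ± 0.46 and at day 4 apart from WT by -0.17 ± 0.08. Its difference was -2.49 ± 0.47. Hoxb3 and Hoxb5 rose more in alphaKO cells, with differences of 2.23 ± 0.45 and 1.41 ± 0.44, the last lost without WT day 0 replicate 1 (0.81, adjusted p = 0.234).

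Hoxb6, a trunk Hox gene, had 47.8, 54.5 and 51.6 CPM in alphaKO libraries at day 4 and 0.232, 0.352 and 0.930 CPM at day 0. WT libraries held 21.9, 26.7 and 25.1 CPM at day 4 and 0.642, 1.60 and 1.72 CPM at day 0. It was higher in every alphaKO library at day 4, and the difference was 2.36 ± 0.39. Hoxd9 rose less, with -2.14 ± 0.43, and Hoxd13 was called in alphaKO cells alone, with a difference of 1.97 ± 0.38. Hoxc11 had 3 counts in all in WT libraries at day 0, and means of 1.04 CPM in alphaKO and 1.33 CPM in WT libraries at day 4. Of the Cdx, Meis and Pbx cofactor list, 3 of 10 were positive and 2 negative, with a median of -0.02, which was 0.11 without WT day 0 replicate 1. Cdx1 had -2.06 ± 0.22, with alphaKO higher than WT by 2.87 ± 0.13 at day 0. Pbx3 and Pbx4 had 1.26 ± 0.19 and -0.57 ± 0.20, the last no longer called without WT day 0 replicate 3 (-0.47) or alphaKO day 4 replicate 2 (-0.48).

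Proneural and neuronal genes came out with more positive than negative differences. Of 18 members 10 were positive and 2 negative, the median difference was 2.07, and the median change was 3.51 in alphaKO cells and -1.09 in WT cells. Neurog1, a proneural factor, had 0.0581, 0.0587 and 0.0517 CPM at day 0, 0.457, 0.377 and 0.485 CPM at day 2 and 4.79, 9.15 and 8.74 CPM at day 4 in alphaKO libraries. WT libraries had 0.175, 0.184 and 0.528 CPM at day 0, 0.0619, 0.271 and 0 CPM at day 2 and 0.218, 0.0595 and 0.0575 CPM at day 4. The alphaKO libraries of day 4 stood far above all others, and the log2 difference from WT at day 4 was 6.08 ± 0.47. Nhlh1, a neuronal helix-loop-helix factor, was at a mean of 2.55 CPM in alphaKO libraries at day 4 and had no count in WT libraries at day 4, so it was at least 40.8-fold higher against a floor of 3 counts over that group. Its difference of changes was no longer called without WT day 0 replicate 1 (adjusted p = 0.069) or 3 (adjusted p = 0.0713).

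Dll1, the Notch ligand of nascent neurons, had 1.10, 1.12 and 0.827 CPM at day 0, 11.5, 12.7 and 11.7 CPM at day 2 and 3.78, 6.85 and 4.63 CPM at day 4 in alphaKO libraries. WT libraries had 6.48, 7.20 and 7.72 CPM at day 0, 26.9, 30.2 and 31.2 CPM at day 2 and 1.74, 2.32 and 2.07 CPM at day 4. Both genotypes peaked at day 2, with alphaKO below WT until then and above it at day 4, and the difference of 4.13 ± 0.29 was a reversal. Elavl3, a neuronal RNA-binding protein, was a blunted fall, with 2.96 ± 0.27. Insm1, a zinc finger factor of neurogenesis, was among the 3 largest reversed falls. It had 2.27, 4.60 and 2.83 CPM in alphaKO libraries at day 4 and 0.814, 0.646 and 0.724 CPM at day 0. WT libraries held 0.435, 0.715 and 0.402 CPM at day 4 and 5.20, 7.44 and 5.35 CPM at day 0, so the high group was day 4 in alphaKO cells and day 0 in WT cells, with no overlap within a day. Its difference was 5.66 ± 0.41.

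Neural progenitor genes had 5 of 15 members positive and 4 negative, with a median difference of -0.08, which was 0.985 without alphaKO day 0 replicate 3. Pax6, a factor of the neural tube and eye, had 30.1, 34.9 and 37 CPM in alphaKO libraries at day 4 and 0.755, 1.23 and 0.827 CPM at day 0. WT libraries held 19.1, 26.1 and 24.8 CPM at day 4 and 5.55, 6.64 and 6.34 CPM at day 0. It was lower in every alphaKO library at day 0 and higher in every one at day 4, with a difference of 3.25 ± 0.24. Olig2, an oligodendrocyte and motor neuron factor, was a blunted fall, with 3.20 ± 0.46. Pou3f2 was at a mean of 3.08 CPM in alphaKO libraries at day 4 and 0.223 CPM in WT libraries at day 4. It had no count in the alphaKO libraries of day 0. Nkx2-2 was at a mean of 0.324 CPM in alphaKO libraries at day 4 and 3.38 CPM in WT libraries at day 4. Its call was lost without alphaKO day 0 replicate 3 (adjusted p = 0.405).

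Signals that pattern the embryo moved both ways, as did all tested genes, of which 24.2% were positive and 19.7% negative. Of 18 Wnt ligands and targets, 4 were positive and 6 negative, with a median of -0.29, which was -0.15 without alphaKO day 0 replicate 2 or WT day 0 replicate 1. Wnt6, a ligand whose gene lies on chromosome 1, had 51.7, 37.3 and 35.4 CPM in alphaKO libraries at day 4 and 0.930, 1.88 and 1.71 CPM at day 0. WT libraries held 113, 108 and 105 CPM at day 4 and 0.467, 0.492 and 0.462 CPM at day 0. It was higher in alphaKO cells at day 0 and lower at day 4 without overlap, and the difference was -3.05 ± 0.43. Wnt3 rose less in alphaKO cells too, with -2.58 ± 0.40, and Wnt8a fell less, with 2.50 ± 0.45. Of 16 Nodal, BMP and Id genes, 6 were positive and 9 negative, with a median of -0.71. Bmp7, a BMP ligand, had a difference of -2.45 ± 0.21 and its gap to WT was -0.25 ± 0.10 at day 4 and 2.20 ± 0.19 at day 0. Lefty1, a Nodal inhibitor on chromosome 1, and the Id genes Id2 and Id4 had 2 ± 0.18, 1.5 ± 0.14 and -1.34 ± 0.27.

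Markers of the primitive endoderm, which retinoic acid can also induce, had 6 of 18 members positive and 5 negative, with a median of 0.03, which was -0.19 in a fit of only the groups compared. Sox17, an endoderm factor on chromosome 1, had 27.9, 34.2 and 31.9 CPM in alphaKO libraries at day 4 and 0.755, 1.70 and 1.71 CPM at day 0. WT libraries held 19.2, 20.5 and 20.1 CPM at day 4 and 0.0584, 0.0615 and 0.396 CPM at day 0. It was higher in every alphaKO library on both days, and since the gap was larger at day 0 the rise counted as blunted, with -2.38 ± 0.48. Gata6 and Amn had -1.97 ± 0.21 and -2.03 ± 0.60, and Amn was no longer called without WT day 4 replicate 2 (-1.29). Gata6 too was higher in alphaKO libraries at day 0, with 93, 102 and 108 counts against 22, 33 and 18 in WT libraries. At day 4 its ranges overlapped, with 1280, 1218 and 1075 counts in alphaKO libraries and 969, 1249 and 1425 in WT libraries. The genes named here are all negative, and none of the 6 positive members is named. The summed level of the list was 7540 to 8340 CPM in alphaKO libraries at day 4 and 1780 to 2070 CPM at day 0, against 6250 to 6550 CPM in WT libraries at day 4 and 1780 to 2010 CPM at day 0. Of 10 mesoderm genes 2 were positive and 2 negative, with a median of -0.27, which was 0.04 without alphaKO day 0 replicate 3 and 0.02 without WT day 4 replicate 2. Their summed level was 86.8 to 95.6 CPM in alphaKO libraries at day 4 and 22.6 to 24.3 CPM at day 0, against 79.8 to 86.9 CPM in WT libraries at day 4 and 20.1 to 22.6 CPM at day 0. Twist1 had 0.68 ± 0.20, Kdr 1.2 ± 0.44, Mixl1 -1.61 ± 0.68 and Tbx1 -3.37 ± 0.92, and the calls of the last 3 were lost without a single library, such as alphaKO day 0 replicate 3. Mixl1 was also not called by DESeq2, with RLE scaling, with library totals or in a fit of only the groups compared. Without the low-count filter neither Mixl1 nor Kdr was called.

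Trophoblast genes had 2 of 7 members positive and none negative, with a median of 0.60, which was -0.13 without alphaKO day 4 replicate 2 and -0.60 without WT day 0 replicate 3. Their summed level was 31.2 to 33 CPM in alphaKO libraries at day 4 and 71.9 to 79.5 CPM at day 0, against 76.7 to 91.2 CPM in WT libraries at day 4 and 36.3 to 39.2 CPM at day 0. The sum was thus lower at day 4 in alphaKO and higher at day 4 in WT, opposite in sign to the list's median. The trophoblast factors Tfap2c and Gcm1 had differences of 0.69 ± 0.17 and 3.37 ± 0.86. Endothelial and blood genes had 4 of 9 positive and 1 negative, with a median of 0.61, which was -0.03 without alphaKO day 4 replicate 1 and 1.22 without WT day 4 replicate 2. Their summed level was 26.5 to 31.6 CPM in alphaKO libraries at day 4 and 93.3 to 110 CPM at day 0, against 21.5 to 26 CPM in WT libraries at day 4 and 61.9 to 68.9 CPM at day 0. Pecam1, an adhesion molecule that embryonic stem cells also carry, had 74.7, 83.5 and 86.4 CPM at day 0 in alphaKO libraries and 41.8, 41.5 and 35.1 CPM in WT libraries, and was a blunted fall, with 2.22 ± 0.20. The germline list had 3 of 14 positive and 4 negative, with a median of -0.25, among them Dazl with 1.67 ± 0.33 and Ddx4 with -1.29 ± 0.10. Rhox9, of the X-linked Rhox cluster, had 2.24 ± 0.58 and was no longer called without WT day 0 replicate 2 (1.56, adjusted p = 0.0524).

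Imprinted genes had 14 of 26 members positive and 7 negative, with a median of 0.30 and 11 exaggerated rises. The largest differences were in Magel2, a blunted fall with 1.98 ± 0.31, and Cdkn1c, and the largest negative one was in Slc38a4, -1.72 ± 0.08. Cdkn1c, which restrains growth and is expressed from the maternal copy, had 149.8, 168 and 163 CPM in alphaKO libraries at day 4 and 9.76, 10.8 and 10.8 CPM at day 0. WT libraries held 114, 123 and 129 CPM at day 4 and 26.4, 26.9 and 33.5 CPM at day 0. It was lower in alphaKO cells at day 0 and higher at day 4, with no overlap. Usp29, a paternally expressed gene, had a difference of 1.71 ± 0.32. The median gap of the list was -0.68 at day 0, -0.50 at day 2 and -0.15 at day 4.

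Cholesterol synthesis genes had 18 of 20 members positive and none negative, with a median of 0.65. Their median change was 0.48 in alphaKO cells and -0.17 in WT cells, and 9 members were reversed. Lss, which closes the sterol rings, had 120.3, 117 and 118 CPM at day 0, 144, 153 and 154 CPM at day 2 and 171, 183 and 183 CPM at day 4 in alphaKO libraries. WT libraries had 132, 124 and 133 CPM at day 0, 129, 136 and 134 CPM at day 2 and 79.5, 80.9 and 86.7 CPM at day 4. The alphaKO libraries were below WT at day 0 and above WT from day 2 on, with the widest gap at day 4. Its difference was 1.25 ± 0.06 (adjusted p = 9.88e-21). Idi1 and Mvd, both of the mevalonate pathway, had 1.06 ± 0.15 and 0.96 ± 0.09, and Insig1, which holds the pathway's regulator in check, had 1.03 ± 0.08.

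The 2-cell-like list, genes of the cleavage embryo that a few embryonic stem cells express, had 8 of 17 members positive and 1 negative, with a median of 1.67, or 1.73 with groups at 0 counts set to a floor of 3 counts. All 8 were exaggerated rises with no called gap at day 0. Zscan4c had 0.465, 0.763 and 0.310 CPM at day 0, 6.96, 5.66 and 5.12 CPM at day 2 and 6.17, 6.63 and 7.14 CPM at day 4 in alphaKO libraries. WT libraries had 0.642, 0.984 and 0.396 CPM at day 0, 5.02, 5.42 and 5.12 CPM at day 2 and 1.23, 1.97 and 1.72 CPM at day 4. The genotypes overlapped at days 0 and 2, and at day 4 every alphaKO library was above every WT library, with a difference of changes of 2.42 ± 0.44. Zscan4b, Zscan4f and Zscan4a had 2.94 ± 0.80, 2.32 ± 0.59 and 2.03 ± 0.43. These are near-identical copies, and the treatment of shared reads is not stated, which makes single members uncertain.

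Of 38 ribosomal protein genes, 27 were positive and 1 negative, with a median difference of 0.20, on a median change of -1.05 in alphaKO cells and -1.25 in WT cells. Rpl30, Rpl13 and Rps29 had 0.39 ± 0.09, 0.37 ± 0.06 and 0.39 ± 0.09. Ribosomal protein genes have many processed copies, which makes single values uncertain. Of 18 glycolysis gene IDs, 9 were positive and 5 negative, with a median of 0.22. These stand for 17 gene names, since Aldoa also appears under another ID with few counts. Slc2a1, the glucose transporter GLUT1, had 198, 167 and 180.1 CPM in alphaKO libraries at day 4 and 424, 475 and 433 CPM at day 0. WT libraries held 658, 578 and 620.3 CPM at day 4 and 518, 513 and 463 CPM at day 0. At day 4 every alphaKO library was far below every WT library, and Slc2a1 was reversed, with -1.60 ± 0.08. Hk1, a hexokinase, was reversed too, with -1.59 ± 0.08, while Pfkl and Pdk1 were blunted falls, with 1.21 ± 0.08 and 0.76 ± 0.08. ATF4 targets had 4 of 15 positive and 3 negative, with a median of 0.07, among them Mthfd2 with 0.73 ± 0.12 Slc7a5 with 0.62 ± 0.07, Psat1 with 0.61 ± 0.07 and Ddit3 with -0.66 ± 0.18. Of 8 Lin28 and oncofetal RNA-binding genes, 4 were positive and 1 negative, with a median of 0.35. Hmga2, a chromatin protein of fetal tissue, rose more in alphaKO cells, with 1.30 ± 0.11, and Lin28a, which blocks let-7 processing, fell less, with 0.77 ± 0.05. The RNA-binding genes Igf2bp1 and Igf2bp2 had 0.58 ± 0.05 and 0.72 ± 0.08.

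**Figure D4:**
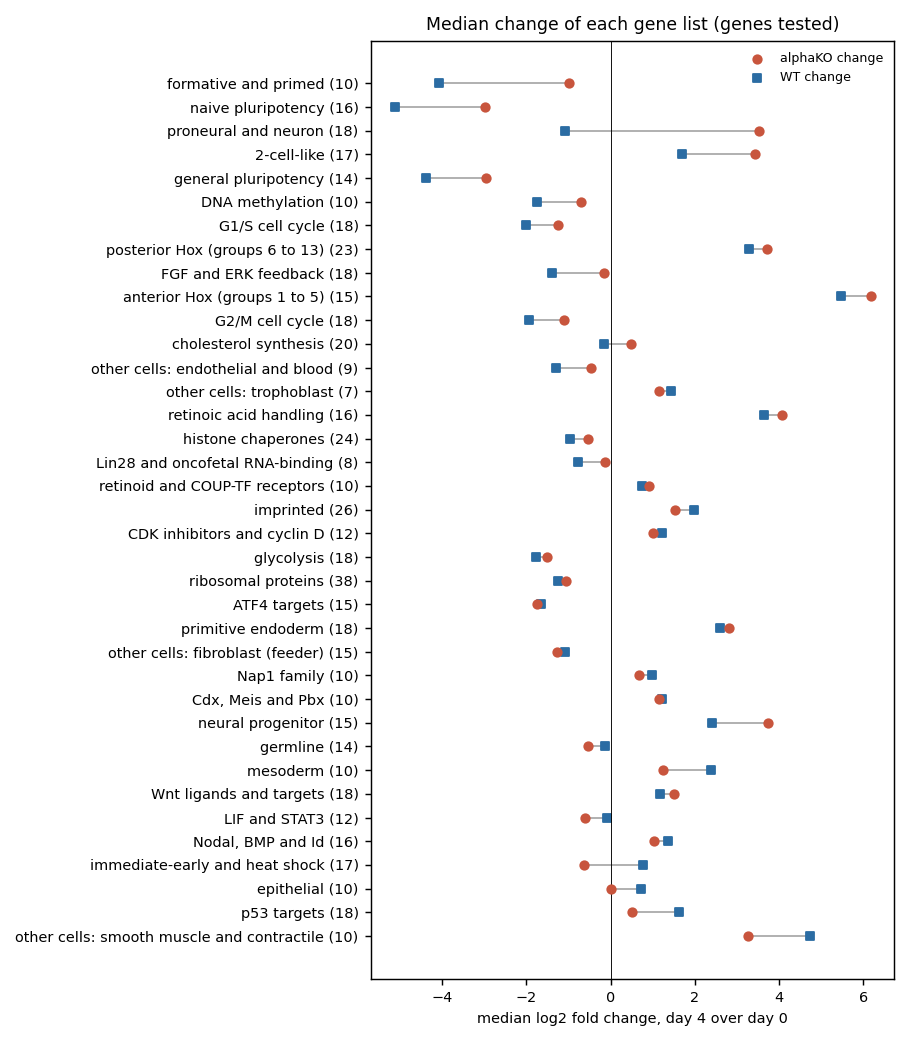
Median change of each of the 37 lists (x axis, log2 fold change, day 4 over day 0) in alphaKO and WT cells, with the number of genes tested in brackets and lists ordered by their median difference of changes. The formative list stands at -0.99 in alphaKO and -4.07 in WT cells, and the smooth muscle list at 3.25 in alphaKO and 4.73 in WT cells. For a few lists, such as imprinted genes, the 2 medians stand in the opposite order to the median of the differences.

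**Figure D5:**
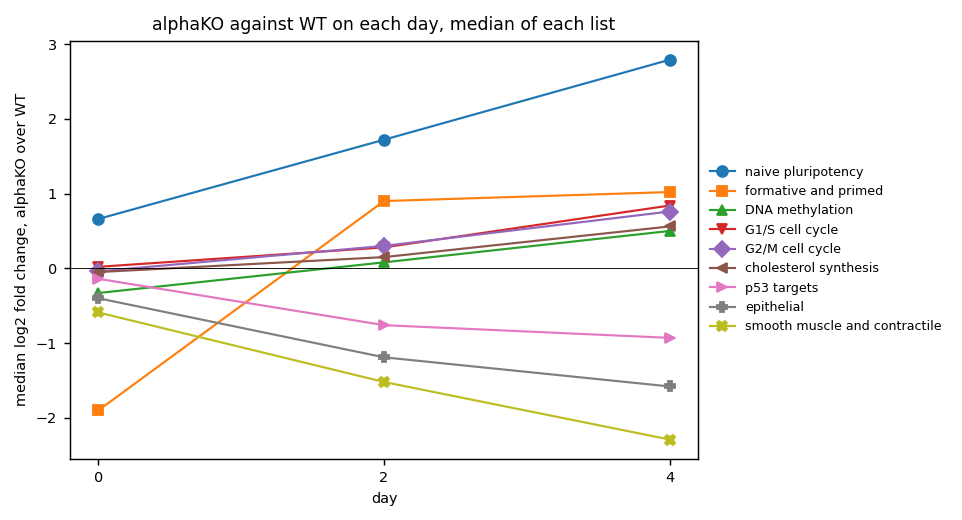
Median log2 difference between alphaKO and WT (y axis) at days 0, 2 and 4 (x axis) for 9 lists. The cell cycle lists start near 0 and reach 0.84 and 0.76, the formative list starts at -1.90 and ends at 1.02, and the smooth muscle list reaches -2.29.

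Within the sorting classes, the protein-coding genes with the largest fitted differences are given next, and where a group had no or few counts the fitted size is not a measured one. Among blunted rises, Ppbp, a chemokine of platelets, had 1.26, 0.931 and 0.772 CPM in alphaKO libraries at day 4 and 0.232, 0.176 and 0.155 CPM at day 0. WT libraries held 16.5, 17.5 and 16.7 CPM at day 4 and 0.0584, 0.0615 and 0.132 CPM at day 0. Of these 4 groups WT at day 4 alone was high, WT had a mean of 9.95 CPM at day 2 against 1.43 CPM in alphaKO, and the log2 difference was -4.09 ± 0.20 at day 4 and -2.79 ± 0.19 at day 2. Fgf18, a growth factor, had 3.40, 3.18 and 1.80 CPM at day 4 and 3.37, 2.11 and 3.26 CPM at day 0 in alphaKO libraries, which overlapped. In WT libraries it had 12.3, 9.53 and 9.48 CPM at day 4 and 0.409, 0.246 and 0.528 CPM at day 0, and the difference was -4.76 ± 0.41. Klrg2, a lectin-like receptor, had -3.82 ± 0.34. One of the 3 blunted falls taken by fitted value was Mup6, a major urinary protein gene whose near-identical relatives make its counts uncertain. Its mean was 0.241 CPM in alphaKO libraries at day 4, at least 3.86-fold over the floor of 3 counts in WT libraries at day 4, which had no count.

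Shh, the morphogen of the floor plate, was an exaggerated rise. It had 0 CPM in all 3 at day 0, 1.71, 1.62 and 1.40 CPM at day 2 and 12.7, 14.3 and 11.3 CPM at day 4 in alphaKO libraries. WT libraries had 0.0584, 0.0615 and 0 CPM at day 0, 0.929, 1.15 and 0.562 CPM at day 2 and 1.89, 1.13 and 1.84 CPM at day 4. It was absent or almost absent at day 0 in both genotypes, and at day 4 every alphaKO library was well above every WT library, with a log2 difference of 2.99 ± 0.21. Its difference of changes was no longer called without WT day 0 replicate 1 or 2 (adjusted p = 0.0669 and 0.0668). Foxp2, a forkhead factor, had 16.9, 17.4 and 17.4 CPM at day 4 in alphaKO libraries against 5.95, 6.01 and 4.83 CPM in WT libraries, and 0, 0.0587 and 0.0517 CPM at day 0 in alphaKO libraries against 0.526, 0.307 and 0.528 CPM in WT libraries. Chrna3, a nicotinic receptor subunit, stood at 3.59, 5.37 and 6.69 CPM in alphaKO libraries at day 4 against 0.218, 0.595 and 0.230 CPM in WT libraries. Both day 0 groups had 2 counts or fewer in all, and its difference of changes was no longer called without WT day 0 replicate 2 (2.02, adjusted p = 0.865). The Chrna3 call was also lost without alphaKO day 0 replicate 1 or 2 or WT day 4 replicate 3. It was lost too without the low-count filter and in a fit of only the groups compared.

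Among exaggerated falls, Xdh, xanthine dehydrogenase, had no count in alphaKO libraries at day 4 and a mean of 0.232 CPM in WT libraries at day 4. Its call was lost without alphaKO day 4 replicate 2 (adjusted p = 0.0514). Ppm1j, a phosphatase, had 1.13, 1.15 and 1.35 CPM in alphaKO libraries at day 4 and 37, 39 and 39.4 CPM at day 0. WT libraries held 8.34, 8.46 and 9.77 CPM at day 4 and 25.9, 24.1 and 23.2 CPM at day 0. It was higher than WT at day 0 and far lower at day 4, with a difference of -3.53 ± 0.20. Padi4, a peptidylarginine deiminase, had -3.07 ± 0.76, with day 0 means of 7.54 CPM in alphaKO and 2.57 CPM in WT libraries. At day 4 Padi4 had 8, 0 and 0 counts in alphaKO libraries and 6, 11 and 6 in WT libraries. The day 4 difference of Padi4 between the genotypes was not called.

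Its relative Padi2 was a reversed rise. Padi2 had 3.40, 2.69 and 2.64 CPM in alphaKO libraries at day 4 and 9.01, 9.81 and 9.41 CPM at day 0. WT libraries held 19.2, 21.0 and 21.9 CPM at day 4 and 4.61, 4.06 and 4.36 CPM at day 0. High groups were day 0 in alphaKO cells and day 4 in WT cells, with no overlap within a day, and the difference was -3.95 ± 0.23. Rapgef3, the cyclic AMP sensor EPAC1, led that class with -4.23 ± 0.28. Reversed falls were led by Enpp2, which makes lysophosphatidic acid, with 1.57 ± 0.31 in alphaKO cells and -4.41 ± 0.30 in WT cells. Meox1, a somite homeobox gene, had 9.89, 9.48 and 9 CPM in alphaKO libraries at day 4 and 0.814, 1.06 and 1.29 CPM at day 0. WT libraries held 0.0725, 0.238 and 0.632 CPM at day 4 and 2.22, 1.48 and 0.792 CPM at day 0. The alphaKO libraries of day 4 stood above all others, and the difference was 5.32 ± 0.50.

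Among genes that changed in alphaKO cells with no called change in WT cells, Nsg2, a neuronal vesicle protein, rose beside Neurog1, with a difference of 4.52 ± 0.54. Pcdhb11, a clustered protocadherin, had 4.29, 6.79 and 6.30 CPM at day 4 in alphaKO libraries against 0.218, 0.357 and 0.287 CPM in WT libraries. Without WT day 0 replicate 3 its difference was 1.66 and its call was lost. Tgm1, a transglutaminase of keratinocytes, fell in alphaKO cells. It had 6.11, 4.33 and 3.99 CPM in alphaKO libraries at day 4 and 41.1, 33.4 and 38.8 CPM at day 0. WT libraries held 13, 11.5 and 12.5 CPM at day 4 and 11.4, 11.8 and 10.9 CPM at day 0. Its WT ranges overlapped between the days, while alphaKO was above WT at day 0 and below it at day 4, with a difference of -3.09 ± 0.18. Tesc and Fmnl1 had -3.03 ± 0.55 and -2.85 ± 0.27.

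The same difference of changes for the other knockout, fullKO against WT (3 fullKO libraries at day 4 and 2 at day 0), was called in 6480 genes, 35.2% of those tested. It shares the WT libraries with the alphaKO one, so the values stand side by side without a test of likeness. The classes were sorted by the alphaKO difference itself, which favours larger alphaKO medians, so the medians do not rank the knockouts. For the 2328 blunted rises the median difference was -0.69 for alphaKO and -0.42 for fullKO. For the 2659 blunted falls it was 0.56 for alphaKO and 0.35 for fullKO. The reversed rises had -1.18 for alphaKO and -0.72 for fullKO, and the reversed falls 1 for alphaKO and 0.56 for fullKO.

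Tested directly, the change from day 0 to day 4 differed between alphaKO and fullKO in 5138 genes, 27.9% of those tested, higher in alphaKO for 2595 (14.1%) and lower for 2543 (13.8%). Fgf4 had a difference from WT of 4.10 ± 0.26 in alphaKO and 4.17 ± 0.25 in fullKO, and its changes in the 2 knockouts differed by -0.06 ± 0.15 (adjusted p = 0.798). Nanog had 2.65 ± 0.10 in alphaKO and 3.19 ± 0.10 in fullKO, a difference between knockouts of -0.54 ± 0.07 (adjusted p = 2.15e-07). Cdh1 was lower in the alphaKO response than in the fullKO response, with -1.06 ± 0.07, and Lss higher, with 1.01 ± 0.07. Insm1 was higher in the alphaKO response, with 4.74 ± 0.49. Dnmt3b differed between the knockouts by 0.40 ± 0.08 (adjusted p = 6.76e-05), and Mcm5 by 0.21 ± 0.05 (adjusted p = 0.00213).

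Foxf1, a forkhead factor, was one of 4 genes taken for the lowest fitted alphaKO response relative to fullKO. It had 17.4, 16.4 and 15.8 CPM in alphaKO libraries at day 4 and 0.407, 0.176 and 0.465 CPM at day 0, and in the fullKO libraries 30.1, 30.4 and 28 CPM at day 4 and no count at day 0. The other 3 were Dkk1, Nog and Lhx1, secreted inhibitors of Wnt and BMP and a homeodomain factor, which also had no count in fullKO libraries at day 0. Of the 4 with the highest fitted response, Neurog1, Chrna3 and Insm1 are given above. Prdm6 had 6.49, 5.75 and 5.79 CPM in alphaKO libraries at day 4 and no count at day 0, and means of 5.4 CPM in fullKO libraries at day 4 and 0.122 CPM at day 0, from 4 counts. At day 4 the knockouts were thus close, and its fitted difference rests on the empty alphaKO group of day 0.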

How the data were processed

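RNA was extracted with an RNeasy kit and made into stranded mRNA libraries with a KAPA kit, per the labels' protocols. FastQC and STAR 2.7.1a were used with the mm10 genome, per the submitters' processing notes. Not given in the sources used here are the counter, how it treated strand, and the gene annotation. The authors deposited raw counts per gene for 26 libraries.

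Gene names came from the GRCm38 annotation (55230 of 55471 IDs matched). Genes passing edgeR's filterByExpr (18412) were scaled by TMM, and 9 group means were fitted to all 26 libraries by the quasi-likelihood test (edgeR 4.0.16, R 4.3.3), with p-values adjusted by Benjamini and Hochberg over all genes tested. SE is the absolute log2 value over the square root of F. It is left out for the difference of changes of Cyp26a1, where the value was near 0 and day 0 counts were few. CPM was computed in edgeR with TMM-scaled library sizes. A gene was called at adjusted p under 0.05. Blunted, exaggerated, reversed and alphaKO only follow from the calls and signs of the difference of changes, the WT change and the alphaKO change. The fits were tested on simulated data with known changes. Alternatives were DESeq2 1.42.0, RLE scaling, library totals, other filters, a replicate block, fewer groups, stricter thresholds and each library left out.

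The members and gene lists were chosen with earlier results of these data known. Named genes were Nap1l1, the 3 largest differences per class and direction and the 4 largest each way between the knockouts among protein-coding genes with at least 5 CPM in a group, and up to 4 called members per list with the largest differences. Nanog, Klf5, Tbx3 and Cyp26a1 were named after their values were seen. Some genes that the rule names are not reported here. Same-numbered libraries of different groups did not deviate together (1 of 18 correlations over 0.1, range -0.068 to 0.141), so numbers were not taken as pairs. No 2 libraries of a group agreed within sampling noise. Depth was 13537267 to 20569706 counts, so genes with few counts in a group are described by their levels, with a floor of 3 counts for a group at 0.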

Additional observations from a re-analysis of the deposited data

Results flagged for a closer look

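The contrast itself is a test of whether the change with retinoic acid differed between genotypes. It passed the threshold in 4464 genes with a larger rise or smaller fall in alphaKO than in WT, and in 3630 genes with the opposite. The same test between the knockouts found 5138 genes whose change differed between alphaKO and fullKO.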

How the results depend on the processing

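When a log2 size of at least 1 was also asked of each called contrast, the counts were 1378 genes with a positive difference of changes, 1287 with a negative one, 1457 blunted, 340 exaggerated, 61 reversed and 582 changed in alphaKO alone. Under the same rule 1321 genes differed at day 4 only, of which 426 were called the same way at day 2, 466 differed at day 0 only, and 1339 differed between alphaKO and fullKO. Under the other settings every one of these counts stayed within 1.5 times its value. Leaving out in turn each of the 12 libraries whose means the contrast uses gave 4170 to 4344 positive and 3387 to 3656 negative differences, 4727 to 4933 blunted, 1341 to 1498 exaggerated and 593 to 668 reversed genes. Leaving out a day 2 library of alphaKO or WT, or a fullKO library of day 0 or 4, gave 4400 to 4472 positive and 3603 to 3676 negative differences. With library totals in place of scaling factors the median over all genes was 0.10 and 4757 differences were positive and 3402 negative; DESeq2 gave 4591 and 3510.

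With the replicate number as a block, 4438 differences were positive and 3602 negative, 4951 genes were blunted, 1493 exaggerated and 662 reversed, and no named gene lost its call. Of 3108 values of 164 named genes under the alternatives, 3029 kept direction and call, and 77 values of 23 genes kept direction without the call. Prdm6, with -0.025 to 3.263 over the libraries left out, changed sign without WT day 0 replicate 3, and Lhx1 was called without alphaKO day 4 replicate 3 (-1.51). Where a group had few counts, depth limited the precision of single genes.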

Other observations

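Among the 12171 genes with at least 5 CPM in 1 of the groups, 7175 (59%) had a called difference of changes. Of these, 4548 (63.4%) were blunted, 1405 (19.6%) exaggerated and 602 (8.39%) reversed.

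The course of the classes over days 0, 2 and 4 is given relative to WT at day 0, as medians of log2 of mean CPM plus 0.5. These are not the fitted changes given above, so the medians differ from those. Days 0 and 4 sorted the classes, so differences between classes on those days follow from the sorting and are only a description. Blunted rises had median levels of 0.15, 0.57 and 0.77 on the log2 scale in alphaKO cells and 0, 0.81 and 1.33 in WT cells. Reversed falls had -0.38, -0.16 and 0.09 in alphaKO cells and 0, -0.21 and -0.45 in WT cells.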
